A study of Mus musculus with 37 samples.

Results

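Astrocyte transcriptomes of the cortex opposite the injury were compared between mice that developed post-traumatic epilepsy (PTE+) and sham mice. The comparison holds the 4 libraries labelled Contra PTE+ (mice 8_10, 8_17, 9_17 and 9_18) and the 5 labelled Contra SHAM (mice 8_15, 8_16, 9_9, 9_10 and 9_11), 9 of the 37 libraries of the series and of the 18 of the contralateral table. All genes of the table were members, 21975 in all, so none was chosen by its value. The gene lists described below were chosen with earlier results of these data known. PTE+ mice had a severe controlled cortical impact, a piston injury over the right parietal cortex, and seizures on later EEG. Sham mice had the craniectomy without the impact. Both groups carried EEG electrodes, were males of the strain the methods call CD1 and the labels list as WT CD31 Injured or WT CD31 Sham, and were sampled 4 months after surgery. The 9 contralateral libraries of injured mice without epilepsy (Contra PTE-) were left out of the comparison and are given only beside it. Each library is 1 mouse, so the spread between libraries is the spread between animals. PTE+ and sham mice differed both in injury and in epilepsy, and these cannot be told apart in this comparison.

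Astrocytes clear glutamate and potassium from the extracellular space, supply neurons with metabolites and contact blood vessels with their endfeet. After injury they become reactive, a state marked by the intermediate filament protein GFAP, and loss of their clearance functions is a well-known feature of epileptic tissue. The cortex opposite a focal injury is reached by callosal axons and can take part in seizures without being struck itself.

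Astrocytes were bound to magnetic beads against the surface antigen ACSA-2, and abundance was deposited as TPM, a share of all transcripts scaled to the same total in each library, which keeps no depth, so the reads behind each value are unknown. The libraries held 12724 to 13730 genes at 1 TPM or more. The 16 astrocyte markers, such as Slc1a3, Slc1a2 and Aqp4, summed to 23708 to 29065 TPM in PTE+ and 24045 to 28273 TPM in sham libraries. RNA of other cells was present in both groups. Oligodendrocyte markers summed to 1593 to 2604 TPM in PTE+ and 1032 to 3385 TPM in sham, and microglia markers to 181 to 385 and 147 to 608 TPM, although Itgam, a defining microglial gene, did not exceed 8.76 TPM in any of the 9. Fewer cells of a type and less RNA per cell cannot be told apart in such bulk samples. Libraries of a group correlated at 0.937 to 0.968 (PTE+) and 0.906 to 0.956 (sham) over tested genes, and PTE+ with sham libraries at 0.93 to 0.967.

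Few genes separated the groups, and with all 9 libraries more of them were lower than higher in PTE+ mice. Genes with a mean above 5 TPM in either group were tested, 10640 in all, and those with a limma p under 0.05 before adjustment and at least a 1.2-fold difference on the log2(TPM + 1) scale are called DEGs. There were 210 DEGs (1.97% of those tested), of which 53 were higher (0.498%) and 157 lower (1.48%) in PTE+. Regardless of fold, 211 genes (1.98%) had an unadjusted p under 0.05, fewer than the 5% that such a threshold passes when no gene differs. By limma 0 genes had a Benjamini-Hochberg adjusted p under 0.05, the smallest adjusted p was 1.0, and no count-based tool could be run on TPM. Each named gene below is therefore a description of these 9 libraries at an unadjusted threshold.

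**Figure D1:**
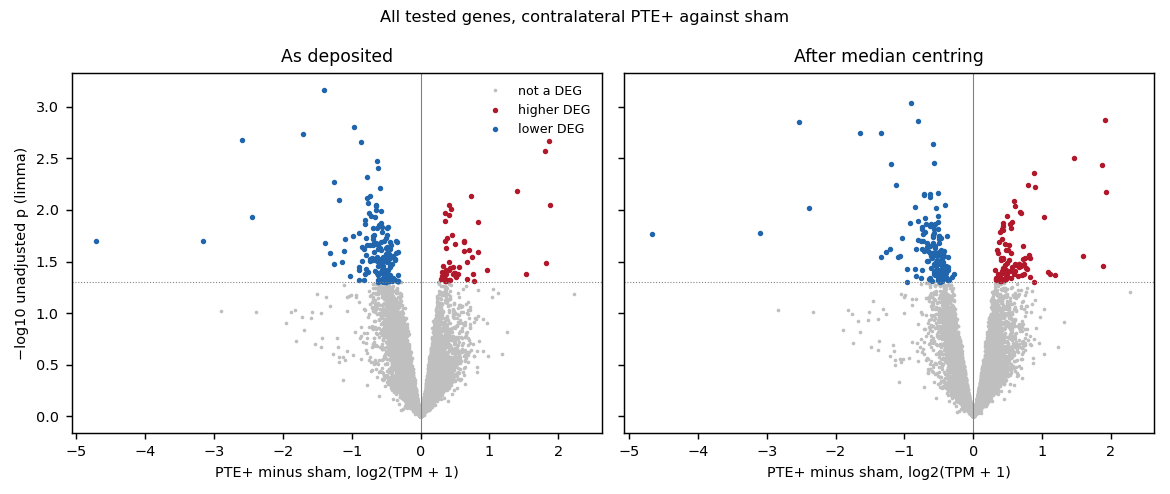
Difference between PTE+ and sham in log2(TPM + 1) (x axis) against −log10 of the unadjusted limma p (y axis) for each of the 10640 tested genes, as deposited (left) and after median centring of the libraries (right). Coloured points are DEGs, 53 higher and 157 lower as deposited, 87 higher and 154 lower after centring; the dotted line marks p = 0.05.

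The split between directions moved with the scaling and with single libraries, though with all 9 libraries lower DEGs were the majority under both scalings. Over the tested genes the log2 fold change had a median of -0.02, and centring each library on its median moved the fold changes up by 0.06 at the median. After centring 241 genes were DEGs (2.27%), with 87 higher and 154 lower, so the share of higher genes went from 25.2% to 36.1%. Of the DEGs, 154 were called in the same direction under both scalings, 39 higher and 115 lower, and the genes named for the size or p of their difference come from these; list members are named with their lists. As deposited, higher genes made up 11.9% of the DEGs when PTE+ mouse 9_17 was left out and 48.3% when 8_17 was. After centring the majority turned without PTE+ mouse 9_17 (214 higher and 172 lower, 55.4% higher) and without sham mouse 8_16 (159 and 153, 51.0%). Leaving out sham mouse 9_9 gave 601 DEGs and leaving out PTE+ mouse 9_17 gave 453, while 104 were called in the fit that lacked PTE+ mouse 8_10 and 137 in the one that lacked sham mouse 9_11.

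**Figure D2:**
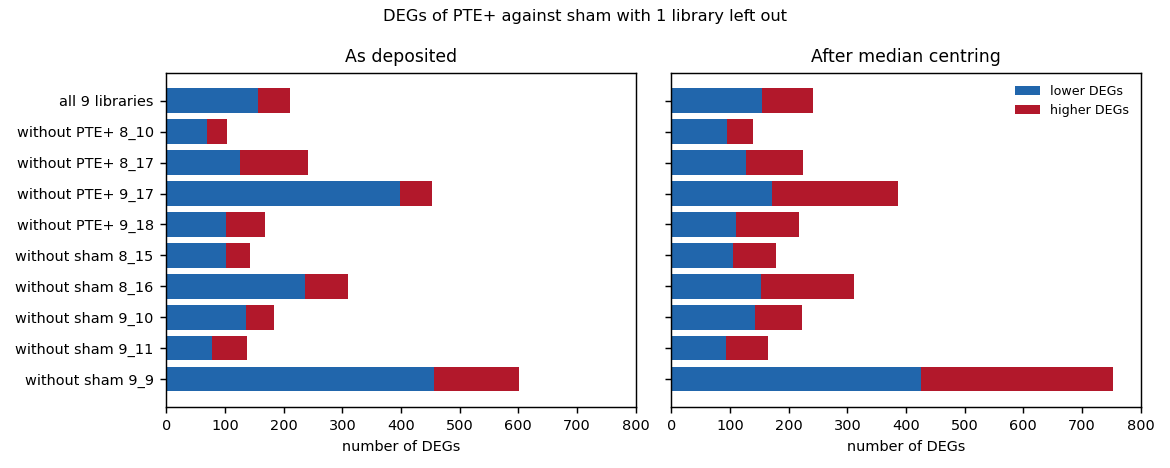
Number of DEGs of PTE+ against sham (x axis) with all 9 contralateral libraries and with 1 library left out (y axis), as deposited (left) and after median centring (right), split into lower and higher DEGs. Counts ran from 104 to 601 as deposited and from 139 to 753 after centring, with the highest counts in both panels without sham mouse 9_9.

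The gene with the smallest p was Hif3a (chromosome 7, 17031507 to 17062427, minus strand, GRCm38), a member of the hypoxia-inducible factor family known to restrain the other alpha subunits. Hif3a was at 2.71, 5.22, 3.56 and 3.14 TPM in PTE+ mice 8_10, 8_17, 9_17 and 9_18, and at 11.6, 21.2, 9.34, 9.51 and 7.5 TPM in sham mice 8_15, 8_16, 9_9, 9_10 and 9_11. Every PTE+ library lay below every sham library. The difference was -1.40 ± 0.31 (SE) on the log2(TPM + 1) scale (limma p = 0.00068), a 2.65-fold lower level, with an exact permutation p of 0.00794 (two-sided), the smallest that 126 splits of 4 and 5 libraries allow. PTE- libraries ran from 1.03 to 7.36 TPM (median 4.79), also below the lowest sham library, and differed from the same sham libraries by -1.20 (limma p = 0.00218).

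Cd38 (chromosome 5, 43868553 to 43912375, plus strand) encodes an NAD-consuming surface enzyme that makes cyclic ADP-ribose. It measured 4.94, 7.88, 7.3 and 6.38 TPM in the PTE+ mice, in the order above, against 14.7, 12.3, 14, 9.75 and 19.2 TPM in the sham mice. The groups did not overlap, and the log2 difference was -0.96 ± 0.23 (limma p = 0.00156, exact permutation p = 0.0159). PTE- libraries lay between 6.52 and 14.6 TPM, and PTE+ was lower than PTE- by a log2 difference of -0.63 (limma p = 0.00759).

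Slc1a5 (chromosome 7, 16781340 to 16798274, plus strand), a sodium-dependent transporter of glutamine and other neutral amino acids, was at 5.07, 4.92, 7.8 and 6.81 TPM in PTE+ and at 8.82, 12.8, 12.3, 13.2 and 12.8 TPM in sham mice. The groups were separate, the sham mouse nearest to PTE+ being 8_15. The log2 difference was -0.87 ± 0.22 (limma p = 0.00217). Tex9 was the fourth named lower gene without overlap, at 12.9 to 19.72 TPM in PTE+ and 19.74 to 26.9 TPM in sham libraries, a gap of a few hundredths of a TPM.

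Fam163a, Myoc and Chek2 were lower in PTE+ with groups that overlapped. Fam163a differed by -1.71 ± 0.43 (limma p = 0.00182), from 5.26, 10.9, 3.12 and 2.79 TPM in PTE+ to 26.5, 7.99, 28.9, 12.9 and 23.6 TPM in sham mice, where only sham mouse 8_16 came below a PTE+ mouse. PTE- mice had a median of 21.6 TPM of Fam163a, and PTE+ against PTE- gave -1.74 (limma p = 0.000497). Myoc, the secreted glycoprotein myocilin, was at 1.57, 1.12, 3.04 and 3.46 TPM in PTE+ against 17.4, 1.78, 12, 8.02 and 4 TPM in sham mice. Sham mouse 8_16 alone lay within the PTE+ range of Myoc. Chek2, a kinase of the DNA damage checkpoint, was at 5.93, 4.34, 14.7 and 7.04 TPM in PTE+ and at 22.2, 21.9, 7.83, 24.3 and 18.7 TPM in sham mice, with sham mouse 9_9 inside the PTE+ range.

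The other named lower genes were Reg3b, a secreted lectin (-1.39), the zinc finger factor Sp6 (-1.26), the chromatin protein gene Hmga1b (-1.11), Edil3, an integrin ligand of the matrix (-1.10), Clmn (-0.77), Ttc19, an assembly factor of respiratory complex III (-0.63), and Fmo1, a flavin-containing monooxygenase (-0.61). Ttc19 was at 32.8 to 40.8 TPM in PTE+ and 39.98 to 65.7 TPM in sham libraries, with only PTE+ mouse 8_10 above the lowest sham mouse, 9_9. Hmga1b closely resembles Hmga1, so reads of the pair could be split between them by the quantification. The calls of Sp6, Myoc, Edil3, Reg3b and Hmga1b were lost when single libraries were left out. Sp6 kept its call in 3 of 9 such fits (lost without PTE+ mice 8_10 or 8_17 and without sham mice 8_15, 9_9, 9_10 or 9_11), Myoc in 5 (lost without 8_10, 8_17, 8_15 or 9_9) and Edil3 in 6 (lost without 8_10 or 9_18, and under the TPM filter without 9_9). Reg3b and Hmga1b were each called in 8, the former lost without PTE+ mouse 8_10 and the latter without sham mouse 9_11. After centring the counts were 4 for Reg3b, 7 for Hmga1b and Edil3, 6 for Sp6 and 5 for Myoc, and Fmo1 was called in 6 of 9 against 9 as deposited.

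Among the genes higher in PTE+, Nptx2 and Ceacam1 had the largest differences. Nptx2 encodes neuronal pentraxin 2, a secreted protein known to cluster AMPA receptors at excitatory synapses. It measured 16.5, 33.5, 14.9 and 24.5 TPM in PTE+ mice and 11.4, 6.03, 0.15, 6.13 and 10.4 TPM in sham mice. Every PTE+ library was above every sham library, and sham mouse 9_9 stood far below the rest. The log2 difference was 1.88 ± 0.60 (limma p = 0.00894, exact permutation p = 0.0238). Neuron markers summed to 178 to 863 TPM in PTE+ and 156 to 961 TPM in sham libraries, and their part in the Nptx2 difference was not tested.

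Ceacam1 (chromosome 7, 25461707 to 25477603, minus strand), a cell adhesion molecule of the immunoglobulin superfamily, was at 17.4, 22.8, 33.6 and 10.9 TPM in PTE+ and at 3.37, 8.33, 1.87, 13 and 2.56 TPM in sham mice. Only sham mouse 9_10 reached the PTE+ range. The difference was 1.86 ± 0.48 (limma p = 0.00216, exact permutation p = 0.0317). PTE- mice lay in between, at 7.01 to 17.6 TPM, being 0.59 on the log2 scale below PTE+ (limma p = 0.0398) and 1.27 above the shared sham libraries (limma p = 0.00117). Ceacam1 is also found on endothelial cells, whose markers are described below.

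Pnpla3 (chromosome 15, 84167837 to 84187236, plus strand), a lipid droplet hydrolase, was at 13.9, 8.75, 9.14 and 18.9 TPM in PTE+ and at 4.58, 0.9, 4.7, 8.59 and 4.18 TPM in sham mice. The groups did not overlap, though PTE+ mouse 8_17 and sham mouse 9_10 were close. The log2 difference was 1.40 ± 0.42 (limma p = 0.00648). PTE- libraries resembled sham, with a median of 3.79 TPM and a highest value of 8.72 TPM, and PTE+ was above PTE- by 1.43 (limma p = 0.000116).

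S100a4, a small calcium-binding protein gene, was at 39.9, 28.4, 31.5 and 40.7 TPM in PTE+ and at 12.1, 23.5, 20.6, 22.7 and 26.6 TPM in sham mice, again without overlap and with a log2 difference of 0.74 ± 0.23 (limma p = 0.00732). Small but tight differences were seen in Kxd1, a lysosome positioning gene (76.9 to 86.9 TPM against 62.1 to 70.6 TPM), Snapc2, a subunit of the complex that activates small nuclear RNA genes (84.9 to 98.9 TPM against 62.5 to 79.3 TPM), and Tpst2, a protein tyrosine sulfotransferase (136 to 188 TPM against 105 to 133 TPM). All 3 were without overlap, at log2 differences of 0.35, 0.36 and 0.41. After centring, Kxd1 was called in 4 of the 9 fits with a library left out, Tpst2 in 6 and Snapc2 in 7.

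The remaining named higher genes were Ahcy, which hydrolyses S-adenosylhomocysteine (1.81), the non-classical MHC gene H2-Q6 (1.53), Scube1 (0.96), the Golgi GDP-fucose transporter gene Slc35c1 (0.84) and the mitochondrial cysteinyl-tRNA synthetase gene Cars2 (0.83, no overlap). Ahcy was at 6.66 to 8.53 TPM in all 4 PTE+ mice and at 0.58 to 1.14 TPM in 4 sham mice, while sham mouse 8_16 stood at 7.2 TPM, within the PTE+ range. H2-Q6 had the highest p of the named genes, 0.0418 by limma, belongs to a family of near-identical genes between which reads can be split, and was called in 4 of 9 fits with a library left out (lost without PTE+ mice 8_10, 8_17 or 9_17 and without sham mice 8_15 or 9_9). Scube1 was called in 4 (lost without 8_17, 9_17, 9_18, 8_15 or 8_16) and Slc35c1 in 5 (lost without 8_10, 8_17, 9_17 or 8_15). After centring both were called in 9 of 9, and H2-Q6 in 5.

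Of the 26 named genes, 11 had groups that did not overlap, 7 of the 12 higher and 4 of the 14 lower ones. Over all tested genes this held for 66 (0.62%), 27 with PTE+ above (0.254%) and 39 with PTE+ below sham (0.367%). The named genes were chosen for their difference, so the larger share among them is no separate result. The mouse names begin with 8 or 9, for which the labels give no meaning. The 26 differences had the same sign within the 4 mice of prefix 8 and within the 5 of prefix 9, from -0.09 to -2.25 and 0.37 to 1.99 in the former and from -0.31 to -2.46 and 0.23 to 2.32 in the latter. The genes were chosen for their difference over these same mice, so a sign shared by both prefixes is favoured by the choice. For the 11 genes without overlap the shared sign is certain, so it is no separate result.

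**Figure D3:**
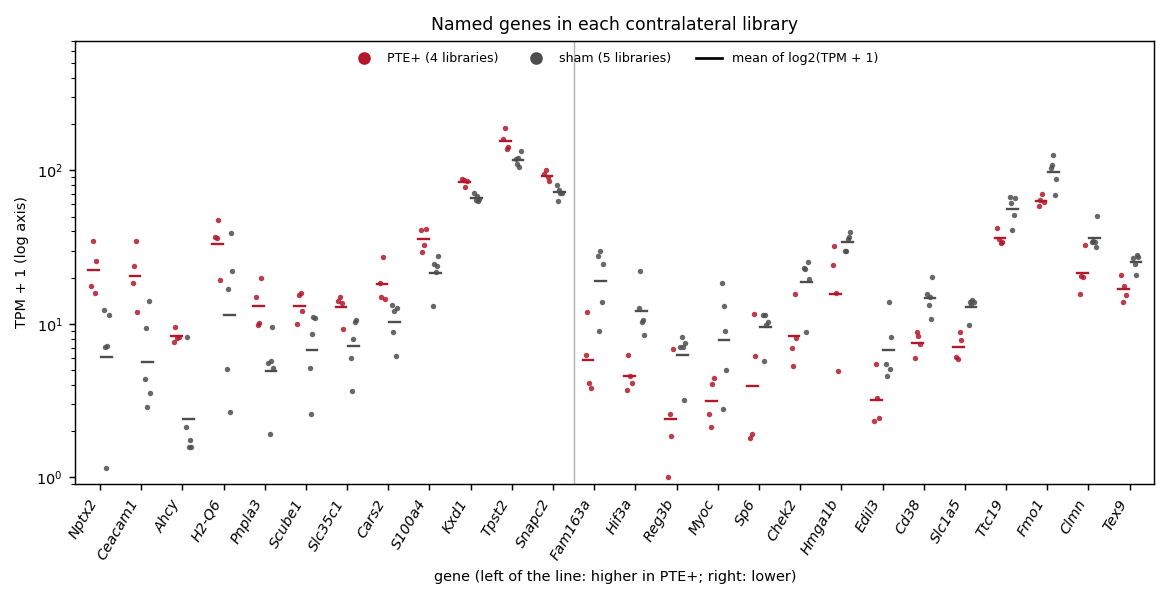
TPM + 1 on a log axis (y) of the 26 named genes (x) in each contralateral library, PTE+ in red (4 mice) and sham in grey (5 mice), with horizontal lines at the group means of log2(TPM + 1). The 12 genes left of the line were higher and the 14 right of it lower in PTE+; Hif3a, Cd38, Slc1a5, Pnpla3 and S100a4 are among the 11 without overlap.

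Astrocyte identity and clearance genes did not differ at the DEG threshold. Of the 16 astrocyte markers 0 were DEGs, 8 lay above and 8 below 0, and their median was -0.03, against -0.02 for all tested genes. The 11 genes of glutamate and GABA clearance had 0 DEGs and a median of -0.03. The 15 tested genes for potassium, water and gap junctions had a median of -0.06, with 7 above and 8 below 0. Gfap was at 156, 139, 340 and 339 TPM in PTE+ and at 440, 174, 444, 389 and 204 TPM in sham mice. The groups overlapped in part. Sham mice 8_15, 9_9 and 9_10 lay above every PTE+ mouse, and PTE+ mice 8_10 and 8_17 below every sham mouse. The log2 difference of -0.45 ± 0.36 was not called. Among 11 pan-reactive astrocyte genes 0 were DEGs, with 9 below 0 and a median of -0.28. For 10 neuroinflammatory reactive genes the median was 0.01, again with 0 DEGs.

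Of 19 tested immediate early genes, which neurons and glia transcribe within minutes of stimulation, 0 were DEGs. All 19 had a log2 fold change below 0 (median -0.34), where 5833 of all 10640 tested genes did. Fos and Egr1, transcription factor genes induced by activity, are described as examples chosen after their values were seen. Fos was at 47.6, 94.2, 26.2 and 21.3 TPM in PTE+ mice and at 202, 228, 37.1, 20.4 and 455 TPM in sham mice. Sham mouse 9_9 lay in the PTE+ range of Fos and 9_10 below every PTE+ mouse, while 8_15, 8_16 and 9_11 were above the range. The log2 difference was -1.45 ± 0.81 (limma p = 0.0996). Egr1 was at 9.14, 18.5, 13.9 and 11.1 TPM in PTE+ and at 25.8, 30.9, 12.4, 13.5 and 119 TPM in sham mice. Sham mice 9_9 and 9_10 were again the lowest sham mice, here both within the PTE+ range. Without sham mouse 9_11 the immediate early median was -0.18, with 15 of 19 below 0, without PTE+ mouse 9_18 it was -0.23, with 14 below 0, and without sham mouse 9_9 it was -0.60.

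Of 37 RNA splicing factor genes tested, 3 were lower DEGs (Srsf5, Hnrnpa2b1 and Luc7l3), where 1.48% of all tested genes were, and 34 were not called. This list and those below were chosen with earlier results of these data known. A share above that of all tested genes is therefore no separate result. Of the 37, 36 had a log2 fold change below 0, with a median of -0.34, where 5833 of all 10640 tested genes were below 0 with a median of -0.02. Srsf5, a serine/arginine-rich splicing factor, was at 342, 347, 420 and 261 TPM in PTE+ and at 521, 488, 331, 472 and 634 TPM in sham mice. Sham mouse 9_9 again fell within the PTE+ range, and the others were above it. Hnrnpa2b1, an RNA-binding protein of the hnRNP class, differed by -0.58 (limma p = 0.0317) and Srsf5 by -0.50 (limma p = 0.0234). Both were DEGs after centring, whereas Luc7l3 (-0.60) was not (p = 0.0609). When single libraries were left out the median ran from -0.47 to -0.24. After centring it was -0.28, with 34 of 37 below 0, and ran from -0.40 to -0.21.

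Most ribosomal protein and nuclear oxidative phosphorylation genes were not called. Of 74 cytosolic ribosomal protein genes, 67 had a log2 fold change above 0 (median 0.18) and 2 were higher DEGs, where 0.498% of all tested genes were, Rps18 (0.70, limma p = 0.0243) and Rpl8 (0.32, limma p = 0.045). Rps18 was at 175, 108, 130 and 205 TPM in PTE+ and at 55.1, 125, 136, 91.8 and 74.5 TPM in sham mice, with the groups overlapping. Of 61 nuclear genes of oxidative phosphorylation, 51 were above 0 (median 0.14), and Ndufb9 (0.41) and Cox5b (0.36) were DEGs. The last 3 of these calls, Rpl8, Ndufb9 and Cox5b, were lost after centring. Both medians were smallest without PTE+ mouse 9_18, where the ribosomal median was 0.05 with 46 of 74 above 0, and the oxidative phosphorylation median was 0.05 with 40 of 61 above 0. Without PTE+ mouse 8_17 the ribosomal median was 0.36, with all 74 above 0. The 13 mitochondrially encoded genes had 0 DEGs and a median of -0.20. Ribosomal protein genes share sequence with many processed pseudogenes, so single members are uncertain.

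**Figure D4:**
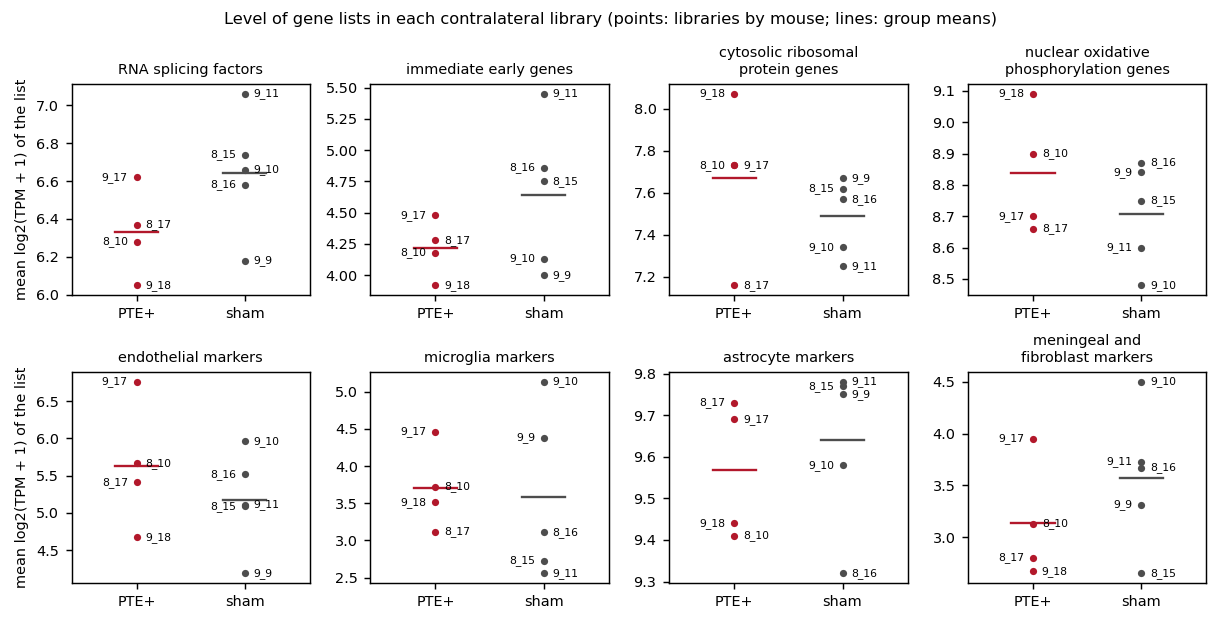
Mean log2(TPM + 1) (y axes, which do not start at 0) of 8 gene lists in each contralateral library, PTE+ in red and sham in grey, with the mouse beside each point and lines at the group means. The groups overlap in every panel; sham mouse 9_9 lies among the lowest PTE+ mice for splicing factors (6.18) and immediate early genes (4.00), and PTE+ mouse 9_17 is highest for endothelial markers (6.76).

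Markers of other cell types moved with single libraries. Of 11 endothelial markers, 10 were above 0 with a median of 0.51, where 5833 of all 10640 tested genes were below 0. Among them 1 was a higher DEG, where 0.498% of all tested genes were. This was Cldn5, a tight junction protein of the blood-brain barrier. Cldn5 was at 468, 329, 584 and 203 TPM in PTE+ and at 228, 364, 127, 292 and 147 TPM in sham mice, overlapping, with a log2 difference of 0.77 (limma p = 0.049). Summed endothelial markers ran from 912 to 2961 TPM in PTE+ and from 506 to 2218 TPM in sham libraries, and none of the 12 was under 0.5 TPM in all 9 libraries. Without PTE+ mouse 9_17 the median was 0.08 with 7 of 11 above 0. The part of these markers in the Ceacam1 difference was not tested.

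Meningeal and fibroblast markers had a median of -0.44 with 10 of 11 below 0, and 0 DEGs, and their sum was 106 to 280 TPM in PTE+ and 109 to 387 TPM in sham libraries. Without sham mouse 9_10, the highest, the median was -0.18. The 8 ependymal markers were all below 0 (median -0.40, 0 DEGs), and without PTE+ mouse 8_17 all 8 were above 0 (median 0.24). Microglia (median 0.25), oligodendrocyte (-0.37), oligodendrocyte precursor (0.16), mural cell (0.01) and neuron markers (0.32) had 0 DEGs each. Each of these medians turned sign with some library left out, running from -0.06 to 0.73 for microglia, -0.77 to 0.02 for oligodendrocyte, -0.25 to 0.37 for precursor, -0.26 to 0.21 for mural cell and -0.03 to 0.62 for neuron markers. The 4 tested erythroid genes were above 0 (median 0.81, 0 DEGs), at sums of 1661 to 7822 TPM in PTE+ and 570 to 4925 TPM in sham libraries.

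The lists of metallothionein and zinc (8 tested), fatty acid oxidation (16 tested) and neuropeptide processing genes (10 tested) each held 1 lower DEG, Mt2, Ppara and Nnat. Of all tested genes, 1.48% were lower DEGs. These lists were chosen with earlier results of these data known, so a called member in each is favoured by the choice and is no separate result. Mt2, a zinc-binding metallothionein, was at 1300, 962, 998 and 797 TPM in PTE+ and at 1749, 1899, 1079, 1380 and 1266 TPM in sham mice. Only PTE+ mouse 8_10 reached into the sham range of Mt2, and the difference of -0.53 (limma p = 0.0202) lost its call after centring (p = 0.0941). Ppara, the nuclear receptor that drives fatty acid oxidation genes, was at 11.4, 14.6, 13 and 10.8 TPM in PTE+ and at 21.9, 12.5, 17.2, 18.3 and 20.2 TPM in sham mice, with only sham mouse 8_16 inside the PTE+ range. Its difference was -0.49 (limma p = 0.0321), and it was called under both scalings. The 16 fatty acid oxidation genes, Ppara included, had a median of -0.06, and none but Ppara was called. Nnat, neuronatin, a small proteolipid of the endoplasmic reticulum, was at 455, 201, 463 and 420 TPM in PTE+ and at 726, 677, 494, 616 and 523 TPM in sham mice. The groups of Nnat did not overlap, PTE+ mouse 8_17 was lowest, and the log2 difference was -0.72 ± 0.24 (limma p = 0.0115).

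Lists with 0 DEGs as deposited were heat shock and chaperone genes (17 tested, 14 below 0, median -0.15), circadian clock genes (14 tested, 12 below 0, median -0.28), glucocorticoid response genes (10 tested, median -0.13), interferon and MHC class I genes (17 tested, median 0.08), antioxidant and glutathione genes (17 tested, median 0.07), cholesterol synthesis genes (18 tested, median 0.12), adenosine genes (7 tested, median -0.07), extracellular matrix genes (12 tested, median -0.23) and ischaemia reactive astrocyte genes (5 tested, median -0.11). After centring, Hmox1 of the antioxidant list (0.43), Dhcr7 of cholesterol synthesis (0.46) and the precursor marker Olig2 (0.38) were higher DEGs, having stayed above p = 0.05 as deposited.

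Whether these differences were particular to the uninjured side was asked by testing the difference between the contralateral and the ipsilateral PTE+ effect. The ipsilateral comparison of 4 PTE+ and 5 sham libraries, from the same mice except that 9_19 takes the place of 8_17, had 163 DEGs of 10447 genes (1.56%). In the test of the difference 105 of 10767 genes (0.975%) had an unadjusted limma p under 0.05, and 312 (2.9%) did with each mouse as a block, over the 3 PTE+ and 5 sham mice with both hemispheres. By limma 0 had an adjusted p under 0.05 in either fit. Since the named genes were picked for a contralateral difference, a larger contralateral than ipsilateral value is favoured among them by the choice.

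Gfap, the reactive astrocyte marker, was called in the ipsilateral and not in the contralateral comparison, and its difference between hemispheres was under the unadjusted threshold. Ipsilateral Gfap was 422 to 970 TPM in PTE+ and 188 to 373 TPM in sham libraries, a log2 difference of 1.29 ± 0.27 (limma p = 0.000507), against -0.45 contralaterally. The difference between hemispheres was -1.74 ± 0.49 (limma p = 0.0023), and -1.32 with the mouse as a block (p = 0.00877).

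Of the 26 named genes 4 differed between hemispheres at an unadjusted p under 0.05, all with the more negative value contralaterally. Over all tested genes the median difference between hemispheres was -0.12, which leans the same way. Slc1a5 differed by -1.14 ± 0.43 (limma p = 0.0158, and p = 0.00779 with the block), its ipsilateral values being 5.26 to 15.1 TPM in PTE+ and 4.05 to 12.2 TPM in sham libraries. Chek2 differed by -1.34 (limma p = 0.00832), Tex9 by -0.82 (p = 0.0178) and Fmo1 by -0.65 (p = 0.0352), and these 3 lost the call with the block (p = 0.0719, 0.13 and 0.0584). Nnat differed by -0.83 (limma p = 0.0153; 0.0604 with the block). The block added Ahcy (-0.68, p = 0.0163), Myoc (-1.16, p = 0.0163) and Edil3 (-1.11, p = 0.0454). Without the block the difference of Ahcy had the opposite sign (0.09), and those of Myoc and Edil3 were -1.25 and -0.86.

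Several of the largest contralateral differences were also seen on the injured side. Of the 24 named genes tested there, 20 had the same sign and 9 were DEGs, where 1.56% of all genes tested there were. Most mice gave libraries of both hemispheres, and the named genes were chosen in those mice. Such agreement is therefore favoured by the choice and is no independent repeat. Ipsilateral log2 differences were 1.72 for Ceacam1, 1.72 for Ahcy, 1.41 for Nptx2, 0.79 for S100a4, -1.38 for Fam163a and -0.91 for Hif3a, each a DEG there as deposited. After centring the ipsilateral calls of Ahcy (limma p = 0.063) and Nptx2 (p = 0.055) were lost. The errors of the difference between hemispheres were wide, for example 0.14 ± 0.66 (SE) for Ceacam1 and -0.49 ± 0.47 for Hif3a, so equal effects were not shown. Fos (-2.17, limma p = 0.0108) and Egr1 (-1.59, p = 0.0115) were lower DEGs ipsilaterally, and their differences between hemispheres, 0.73 and 0.52, were not called. List medians stood apart on the 2 sides without a test: -0.34 contralaterally and 0.05 ipsilaterally for splicing factors, 0.18 and -0.10 for ribosomal protein genes, -0.34 and -0.74 for immediate early genes, and -0.28 and 0.73 for pan-reactive genes, where the ipsilateral median of all tested genes was 0.09.

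**Figure D5:**
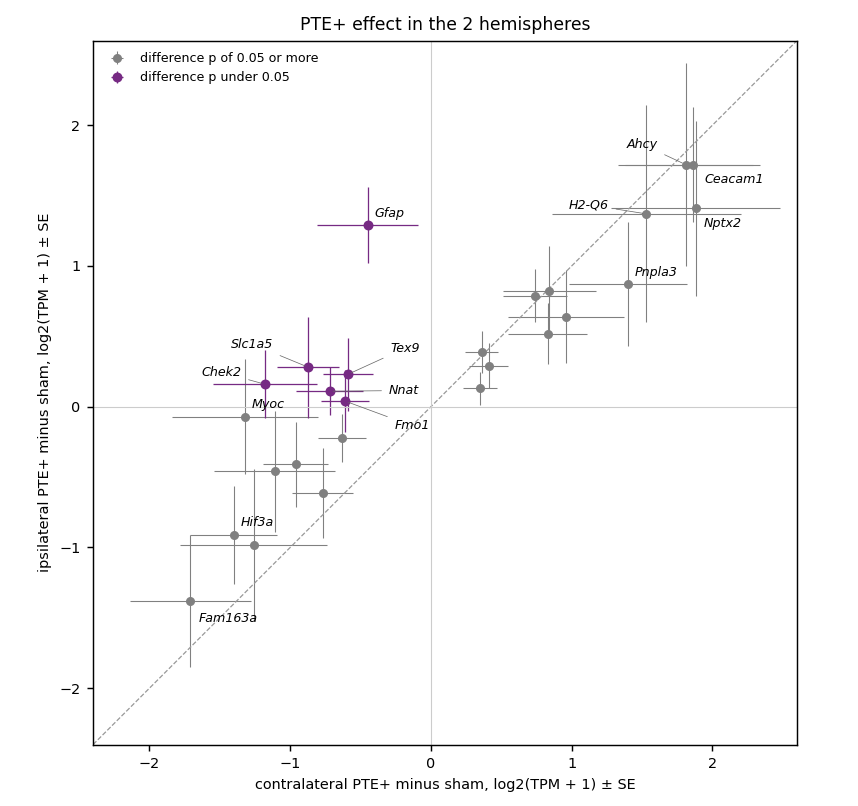
PTE+ minus sham difference in log2(TPM + 1) with its SE in the contralateral (x axis) and ipsilateral cortex (y axis) for the 24 named genes tested on both sides and for Gfap and Nnat; the dashed line marks equal effects. Purple points (Gfap, Slc1a5, Chek2, Tex9, Nnat and Fmo1) had an unadjusted p under 0.05 for the difference between hemispheres, and Gfap lies farthest from the line among the genes plotted.

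The injured mice without epilepsy were compared with each group in turn. PTE+ against PTE- had 291 DEGs of 10423 genes (2.79%), and PTE- against sham 397 of 10564 (3.76%). By limma 0 genes had an adjusted p under 0.05 in either. Of the 23 named genes tested between PTE+ and PTE-, 7 were DEGs: Fam163a (-1.74), Pnpla3 (1.43), Scube1 (0.78), Cd38 (-0.63), Ceacam1 (0.59), Tpst2 (0.32) and Ttc19 (-0.30). The named genes were chosen as DEGs against sham with the same PTE+ libraries. A share above the 2.79% of all tested genes is therefore favoured by the choice and is no separate result. Nnat was also lower than in PTE- (-0.76, limma p = 0.00793), where PTE- libraries ran from 378 to 930 TPM. Ppara was lower than in PTE- by a log2 difference of -0.52 (limma p = 0.00398), and Rps18 was higher by 0.88 (limma p = 0.00412). In PTE- against sham 7 of 25 named genes were DEGs, among them Hif3a, Ceacam1, Slc35c1 (0.56), Cars2 (0.63) and S100a4 (0.46). List medians in PTE- against sham were -0.31 for splicing factors and -0.29 for immediate early genes, near those of PTE+ against sham. They were 0.03 for ribosomal protein genes and -0.28 for endothelial markers, and -0.09 for all genes tested there. The list medians were not tested. These comparisons share the PTE+ or the sham libraries with the main one, so their values are given side by side and are not independent.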

How the data were processed

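The authors isolated cortical astrocytes with ACSA-2 MicroBeads, made libraries with SMART-Seq v4, and deposited 1 table of TPM per hemisphere. The submitters' processing notes name Trim Galore 0.6.4, Bowtie2 2.4.1, RSEM 1.2.28 and mm10. The paper reports leaving out 1 PTE+ animal for a low correlation value and 1 PTE- animal for missing sequencing data. By the labels, the PTE+ mouse without a library differed between hemispheres: 9_19 had no contralateral and 8_17 no ipsilateral library. Here 0 columns of deposited TPM went unused. The annotation release is not given in the sources used here. Symbols and positions came from GENCODE vM21 on GRCm38 and named 21856 of 21975 identifiers. TPM sum to a fixed total and keep no depth, so a change in abundant genes moves the others, counting error is unknown and no test on reads, such as the DESeq2 1.36.0 run by the authors, could be made.

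Groups were compared on log2(TPM + 1) by limma 3.58.1 (R 4.3.3), with a trend of variance on level, over the 2 groups compared and genes with a mean above 5 TPM in 1 of them. The fold change understates differences of low genes. P-values were adjusted over all tested genes. Single genes were also tested by two-sided exact permutation over 126 splits. Scripts were tested on simulated data. Tables and figures were made with Python 3.11.15, numpy 2.4.6, pandas 2.3.3 and matplotlib 3.10.9.

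Members and the 31 gene lists were chosen with earlier results of these data known. Named genes were DEGs under both scalings with a symbol that is not a clone name: the 8 largest differences and the 8 smallest p-values in each direction; list members are named where called or defining, and 1 called member is not reported here.

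Both hemispheres came from the same animal for 3 PTE+ and 5 sham mice, by the mouse names in the labels. Their deviations from group means correlated at 0.183 to 0.677 (above 0.1 in 8 of 8), so the replicate block pairs the libraries of a mouse. Alternatives were a pseudocount of 0.1, other filters, median centring, quantile normalization, weighting of libraries, adding the PTE- libraries to the fit, the name prefix as a covariate, other thresholds and leaving out each library.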

Additional observations from a re-analysis of the deposited data

Results flagged for a closer look

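For 10 of the 144 groups of values examined (genes or list levels, in PTE+ or sham mice), 1 library stood apart from the others of its group by Dixon's criterion, where chance gives about 1 in 20, or 7.2. Among sham mice, Nptx2 was at 0.15 TPM in 9_9 (6.03 to 11.4 in the others), Ahcy at 7.2 TPM in 8_16 (0.58 to 1.14), Reg3b at 2.18 TPM in 9_10 (6.09 to 7.22), Sp6 at 4.75 TPM in 8_16 (8.84 to 10.5), Chek2 at 7.83 TPM in 9_9 (18.7 to 24.3), Slc1a5 at 8.82 TPM in 8_15 (12.3 to 13.2) and Clmn at 49.3 TPM in 9_11 (30.8 to 33.9). The mean log2(TPM + 1) of fatty acid oxidation genes was 6.96 in sham mouse 8_16 and 7.23 to 7.26 in the other sham mice. Among PTE+ mice, Nnat was at 201 TPM in 8_17 (420 to 463 in the others), and the mean level of neuroinflammatory reactive astrocyte genes was 5.01 in 9_17 (3.87 to 4.02).

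The PTE+ effect differed between hemispheres, at an unadjusted limma p under 0.05 for the contralateral minus the ipsilateral effect, in Gfap (-1.74), Chek2 (-1.34), Slc1a5 (-1.14), Nnat (-0.83), Tex9 (-0.82) and Fmo1 (-0.65). With the mouse as a block Gfap and Slc1a5 stayed under that threshold and the other 4 did not, and 0 genes had an adjusted p under 0.05.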

How the results depend on the processing

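The count of 210 DEGs became 1114 with array weights (which ran from 0.431 for sham mouse 8_16 to 4.433 for PTE+ mouse 8_10), 401 without a filter on TPM, 100 at a fold of 1.5 and 0 at an adjusted p; 0 genes had an adjusted p under 0.05 under any setting of the fit. Leaving out 1 library gave 104 to 601 DEGs, and 139 to 753 after median centring. The other alternatives stayed within 1.5 times the count (211 to 285), with 33.5% to 36.1% of DEGs higher after median centring, quantile normalization or with the prefix as a covariate, against 25.2%. The count of 105 genes whose PTE+ effect differed between hemispheres at an unadjusted p went to 312 with the replicate block and to 280 with median centring and the replicate block, and it was 94 with centring alone. PTE+ against PTE- had 291 DEGs, 361 after median centring and 329 with the prefix as a covariate. None of the 26 named genes changed sign in the 441 values recomputed; 34 lost the call, 28 of them by leaving out a library, 3 in the fit of all 3 groups, 2 with array weights and 1 with quantile normalization, and Edil3 fell below the filter without sham mouse 9_9. Within 1 prefix 12 values moved by more than the spread between mice. The genes were chosen in these mice, so kept signs are favoured by the choice. Of 310 list medians 2 moved by more than the spread of the list's level, both of ischaemia reactive genes (0.24 without PTE+ mouse 9_18, 0.17 without sham mouse 8_16). The cause of these changes was not tested. Depth is unknown, so what it limits could not be given.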

Other observations

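Beside the genes named in the comparison, 16 DEGs of both scalings had clone-type names or no symbol. The genes described here were chosen after their values were seen. Gm17571 and Gm10985 were listed at 0 TPM in all 4 PTE+ mice and in sham mice 8_16 and 9_9. In sham mice 8_15, 9_10 and 9_11 they stood at 75.4, 322 and 513 TPM and at 30.5, 35.3 and 47.9 TPM. Gm20390 was at 0, 0.56, 6.35 and 3.65 TPM in PTE+ mice and at 48.6, 9.67, 7.32, 9.02 and 25.1 TPM in sham mice, so its groups did not overlap, with a log2 difference of -2.59. Gm10320 was at 0 to 0.22 TPM in PTE+ mice and at 0.18 and 0.77 TPM in sham mice 8_15 and 8_16, against 13.8, 16.1 and 16.4 TPM in sham mice 9_9, 9_10 and 9_11, so its difference lay with the sham mice of prefix 9.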
